A study of Mus musculus with 16 samples.

Results

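Immediate early genes are switched on soon after growth factors, calcium entry, cytokines or stress reach a cell, by factors that the cell already holds, and most of their transcripts decay quickly. Fos and Jun proteins pair through leucine zippers to form AP-1, a transcription factor that acts on genes with later responses. In the spinal cord, Fos marks neurons driven by sensory input, and Jun and Atf3 are known for their induction in neurons with cut axons. The 10 genes described here were chosen as members of this class and matched by symbol among the 41193 genes with a count in the matrix, where all 10 were found. They are the AP-1 genes Fos, Fosb, Jun, Junb and Jund, the zinc finger factor Egr1, the stress-induced factor Atf3, the orphan nuclear receptor Nr4a1, the short nuclear protein Ier2, and Dusp1, a phosphatase that inactivates MAP kinases.

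The counts come from single-cell suspensions of mouse spinal cord around a cervical dorsal column lesion, made into 16 libraries of the 10x Genomics 3′ chemistry, 1 per mouse. WT mice (Ryk+/+,GFAPcreERT2) and conditional knockouts, called cKO (Rykfl/fl,GFAPcreERT2), were 8-10 weeks old, and the labels give 2 mice of each genotype uninjured and 2 at each of 3 times (1, 7 and 14 d) past spinal cord injury (SCI). Both genotypes carry the tamoxifen-induced Cre and were given tamoxifen, and a human GFAP promoter directs the Cre to astrocytes, so the deletion is not aimed at the endothelial cells, microglia and neurons described below. The tissue was dissociated with pronase in the presence of actinomycin D, which blocks transcription, and the cells had been assigned to 17 clusters.

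The libraries were uneven, and this bears on every result that follows. WT mouse 2 at 1 d held 1 cell with 266 unique transcript molecules (UMIs), none of them from the 10 genes, and was left out, so that 1 d rests on 1 WT and 2 cKO mice. The other 15 mice held 536263 to 9008729 UMIs in 18202 cells. The median per cell was 414 UMIs in WT mouse 1 at 1 d and in WT mouse 1 at 7 d, 421 in cKO mouse 1 at 1 d and 548 in cKO mouse 1 at 7 d, against 1040.5 to 3637 in the rest. These 4 libraries share barcodes with each other: 335 of their 5237 cells (6.40%) carried a barcode found in another of the 4, and 315 of 341 such pairs lay in the same cluster (92.4%, against 14.3% for any pair of their cells). The other 99 pairs of libraries shared at most 4 barcodes each.

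The sample titles carry animal numbers, 6 below 10000 (both replicate 1 uninjured mice and the same 4 libraries) and the others above, all 14 d mice included. Mice with numbers below 10000 are called low-number mice, and the 9 others that were used are called high-number mice. In 6 of the 16 libraries, all of them high-number replicate 2 mice, the cell names give another condition than the title and the cell table. Among the 9 high-number mice used, the cell names change the time point of 3, namely cKO mouse 2 uninjured (named 7 d), WT mouse 2 at 7 d (named 1 d) and cKO mouse 2 at 14 d (named 7 d). They also change the genotype of 3, namely WT mouse 2 uninjured and WT mouse 2 at 14 d (named cKO) and cKO mouse 2 uninjured (named WT), so the genotype of these mice is in doubt too. Titles were followed, and values with the conditions of the cell names are given beside the results that passed and beside those of Cluster 6, while for Clusters 4, 5 and 7 the changes at 1 d are given again.

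Ryk, the targeted gene, averaged 109 ± 30.8 CPM (UMIs of the gene scaled to 10⁶ UMIs in all) in the astrocyte clusters of WT mice (SD, n = 7; lowest 54.0, median 108, highest 157). In cKO astrocytes it averaged 87.0 ± 34.5 CPM (n = 8; lowest 23.0, median 87.6, highest 123). Most cKO mice lay inside the WT range, and in all other cells Ryk averaged 59.2 ± 12.7 CPM in WT and 56.7 ± 9.01 CPM in cKO. The 3′ tags count a transcript whether or not exons further upstream were deleted, so these values do not check the genotype of a mouse.

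Across cell types, the summed level of the 10 genes was high in myeloid, endothelial and immune cells and pericytes and low in astrocytes, neurons and oligodendrocyte precursors. Levels are UMIs summed over the cells of a mouse in a cluster, as CPM, for mice with at least 10 cells there. The summed level of the 10 genes was highest in Cluster 16 (5205 ± 2424 CPM, SD, n = 5 mice), which is named myeloid cells and was led by neutrophil markers. Endothelial cells (Cluster 1) followed with 3611 ± 1884 CPM (n = 15), then the immune cells of Cluster 12 (2523 ± 1071, n = 10) and pericytes (Cluster 9; 2008 ± 913, n = 15). The place of Cluster 1 depends on the mice: with the animal numbers explained above, its sum averaged 5573 CPM in low-number and 2303 CPM in high-number mice, and Cluster 12 was above it in 5 of the 6 high-number mice with both. Cluster 1 was above Cluster 16 in both low-number mice with both clusters and under it in all 3 high-number mice. At the other end were neurons (Cluster 3; 278 ± 231, n = 15) and the astrocytes of Cluster 7 (158 ± 96.6, n = 15). Of the fixed marker lists, the one that led in each cluster matched its name, with all 6 endothelial markers found in Cluster 1, while Cluster 13, which is named unknown, was led by ependymal markers.

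**Figure D1:**
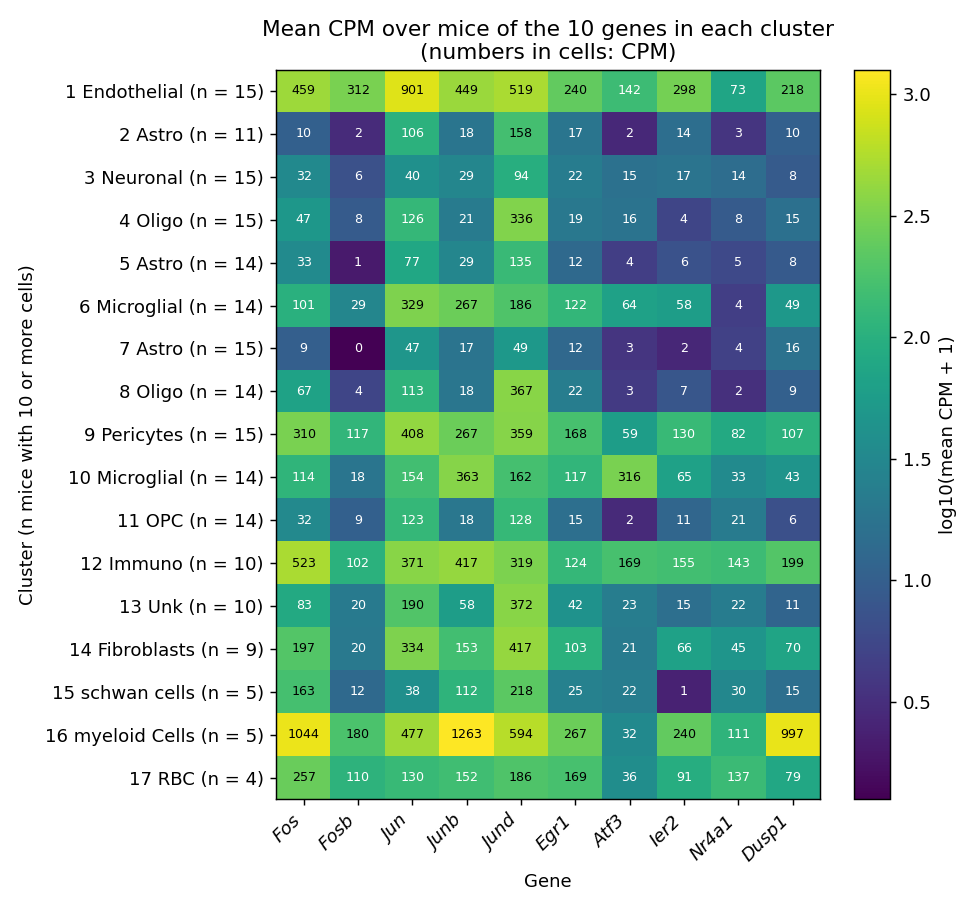
Mean level of the 10 genes (CPM, colour on a log scale) in the 17 clusters, over mice with at least 10 cells. The summed level was 5205 CPM in Cluster 16 and 3611 CPM in Cluster 1, against 158 CPM in the astrocytes of Cluster 7.

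Among the AP-1 genes, Fos, the partner that cannot pair with itself, had its highest mean in Cluster 16 (1044 ± 860 CPM, n = 5), followed by Cluster 12 (523 ± 325, n = 10), Cluster 1 (459 ± 350, n = 15) and Cluster 9 (310.04 ± 209.6, n = 15). Its lowest mean was in Cluster 7 (9.22 ± 9.82, n = 15). Fosb, its close relative, averaged 312 ± 298 CPM in Cluster 1, where it was above the pericytes in 13 of 15 mice. Jun, the main partner of Fos, had its highest median in Cluster 1 (mean 901 ± 325 CPM) and was above pericytes (408 ± 194) in 15 of 15 mice. Junb, which can take the place of Jun in AP-1, was highest in Cluster 16 (1263 ± 890, n = 5), above Cluster 12 in 5 of 5 mice, and averaged 449 ± 254 CPM in Cluster 1. Jund, the Jun gene that resting cells express most steadily, was the most even, with 594 ± 175 CPM in Cluster 16, 519 ± 205 in Cluster 1 and 48.8 in Cluster 7.

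The other factors had their own order. Egr1, which binds GC-rich promoters, had its highest median in endothelial cells (mean 240.4 ± 136 CPM, n = 15). Within mice Cluster 1 was above Cluster 16 in 2 of 5 (mean log2 difference −0.19). Atf3, a bZIP factor that pairs with Jun, was highest in the microglia of Cluster 10 (316 ± 158 CPM, n = 14) and lower in the microglia of Cluster 6 (64.3 ± 37.4, n = 14), and its median was 0 in Clusters 2, 5, 7, 8 and 11. Nr4a1 averaged 143 ± 122 CPM in Cluster 12 (n = 10), above 72.6 ± 44.8 in endothelial cells. By median its order is led by the red blood cells of Cluster 17, which 4 mice filled. Within mice Cluster 17 was above Cluster 12 in 0 of 4 (mean log2 difference −0.385), so this lead comes from medians over different mice. Ier2 led in endothelial cells (298 ± 169). Dusp1 was highest in Cluster 16 (997 ± 358 CPM, n = 5), above Cluster 12 in 5 of 5 mice, and averaged 218 ± 130 CPM in Cluster 1, above pericytes in 14 of 15 mice.

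Most neighbours in these orders were not apart beyond the spread between mice, with a mean log2 difference within a mouse under its SD. For Fos, Jund and Nr4a1 this held at every step of the order. The steps that passed were Cluster 1 over Cluster 9 for Fosb, Jun and Dusp1, Cluster 16 over Cluster 12 for Junb and Dusp1, Cluster 16 over 17 and Cluster 12 over 3 for Egr1, Cluster 12 over 6, Cluster 9 over 15 and Cluster 14 over 2 for Atf3, and Cluster 6 over 3 for Ier2. The clusters were made from the same counts, so their differences are described and not tested.

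Counted by cells, with each cell thinned to 500 UMIs, Fos was seen in 10.2% of endothelial cells (322 of 3154; 95% Wilson interval 9.20 to 11.3%) and in 38.8% of Cluster 16 (40 of 103; 29.99 to 48.5%). In the astrocytes of Cluster 7 the share was 0.252% (2 of 794; 0.069 to 0.914%), and in red blood cells, which have no nucleus, it was 5.51% (6 of 109; 2.55 to 11.5%). Fos was thus also found in cells that should lack it, and these intervals cover counting error only. The endothelial share joins mice that differ, with Fos in 13.04 to 41.8% of the thinned cells in low-number mice and 0.597 to 8.33% in high-number mice. Before thinning the shares were 22.4% at a median of 890.0 UMIs in endothelial cells and 14.3% at a median of 1339 UMIs in red blood cells. Thinning left out 1047 of 4201 endothelial cells with under 500 UMIs, of which 242 to 297 came from each of the 4 libraries that share barcodes.

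Within endothelial cells the summed level of the 10 genes parted the mice by animal number. The 10 genes summed to 3203 to 7064 CPM in the 6 low-number mice and to 1459 to 3089 CPM in the 9 high-number mice, with no overlap. Fos averaged 809.8 ± 274 CPM in low-number and 224 ± 114 in high-number mice, Fosb 615 against 110.2, Jun 1241 against 674, and Junb 695 against 285. Jund averaged 747 against 367, Egr1 344 against 171, Atf3 210.2 against 95.9, Ier2 479.6 against 178, Nr4a1 103 against 52.6 and Dusp1 328 against 145. For Fosb, Jun, Jund and Ier2, 4 of the 10, every low-number mouse was above every high-number mouse, which holds for 0.674% of the 10985 genes tested in Cluster 1.

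The 2 low-number mice outside the libraries that share barcodes, both uninjured, had summed levels of 5299 CPM (WT) and 3203 CPM (cKO), also above all high-number mice. In single cells the split was as wide: after thinning, 17.4 to 46.7% of the endothelial cells of low-number mice held UMIs of at least 3 of the 10 genes, against 2.69 to 12.2% in high-number mice. Endothelial markers overlapped between both sets (all 6 found, summed 14861 to 17489 CPM in low-number and 11408 to 17175 in high-number mice, with Flt1 the most abundant). Of the other marker lists, not all of which are given here, astrocyte markers were among those that did not overlap (91.0 to 269 against 340.04 to 1750 CPM, Slc1a2 the most abundant in high-number mice). Heat shock genes overlapped (1552 to 2632 against 1085 to 2307). The part of these RNAs, and of depth, in the difference was not tested.

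In the microglia of Cluster 6 the direction turned. The 10 genes summed to 441 to 809 CPM in 5 low-number mice and 940.5 to 2027 CPM in 9 high-number mice. Fos averaged 33.6 against 138 CPM and Junb 136 against 339, and for these 2 of the 9 genes tested every low-number mouse was under every high-number mouse, as for 0.811% of the 7394 genes tested there. Jun averaged 111 against 450.5, with ranges that touched. In pericytes the summed level overlapped (mean 2151 against 1912 CPM).

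Across all mice, the mean log2 level of the 10 genes in endothelial cells ran with that of pericytes (r = 0.420, n = 15) and against that of Cluster 6 (r = −0.667, n = 14). Within the 9 high-number mice both were positive, at 0.766 for pericytes and 0.517 for Cluster 6, and Cluster 10 moved from −0.505 (n = 14) to 0.681. The astrocytes of Cluster 7 went the other way, from 0.263 (n = 15) to −0.739. Within the 6 low-number mice r was 0.798 for pericytes and −0.062 for Cluster 7. Of 91 pairs of clusters with at least 6 mice in common, 15 had r over 0.5 (median r 0.143), and within high-number mice 23 of 89 did (median 0.201). Both clusters of a pair come from the same libraries and share their depth, so these values are a description.

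Expression after injury was asked for each gene in the 6 clusters with the most cells, with both genotypes averaged and uninjured mice as the reference, which the 3 time points share. In the main fit, with all 15 mice and no term for the number series, no member passed the test. Enough counts were present for 43 pairs of gene and cluster (Cluster 1 all 10, Clusters 3 and 6 9 each, Clusters 4, 5 and 7 5 each). Of these, edgeR called 0, 0 and 0 at 1, 7 and 14 d at an adjusted p under 0.05. Over all genes the share called was 0.0413, 0.00787 and 0.189%. At an unadjusted p under 0.05 the counts of pairs were 8, 6 and 8, and DESeq2 called 0 at each time, with 7, 3 and 6 at that unadjusted level. The fitted log2 change was positive in 29, 24 and 23 of the 43 pairs. Without the 4 libraries that share barcodes, and likewise without the cells that share them, edgeR again called 0 at each time (with 4, 8 and 8 pairs, and 8, 6 and 8, at an unadjusted p under 0.05).

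In endothelial cells, members passed the test once the mice were taken by animal number. In high-number mice, with the genotypes joined, Egr1, Atf3 and Fos rose and Jund fell at both 7 d and 14 d. Values are given below for WT mice 1 and 2 and then cKO mice 1 and 2 (at 1 d, WT mouse 1 and then both cKO mice), where mouse 1 is the low-number mouse except at 14 d.

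Fos measured 659, 27.0, 338 and 107 CPM in uninjured mice and 978, 818 and 152 at 1 d. After 7 d the values were 1012, 279.7, 1054 and 221, and after 14 d 271, 228, 385 and 349. The uninjured high-number mice were the lowest of all 15, and each injured high-number mouse was above both of them, although under every injured low-number mouse. In high-number mice Fos rose by 1.43 ± 0.399 on the log2 scale at 7 d (SE; edgeR adjusted p 0.0341; 2 of 2 mice above 2 uninjured) and by 1.75 ± 0.368 at 14 d (adjusted p 0.00985; 4 of 4 mice above). In low-number mice all 4 injured mice were also above both uninjured mice, by 0.75 at 1 d and 0.96 at 7 d, which did not pass (edgeR adjusted p 0.719 and 0.432).

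The other AP-1 genes differed among themselves. Jund measured 688, 434, 607 and 479.8 CPM in uninjured mice and 790.2, 719 and 325 at 1 d. At 7 d the mice had 839, 326, 837 and 385, and after 14 d 334, 395, 306 and 320.3. Every injured high-number mouse was under both uninjured ones, while injured low-number mice were above theirs. In high-number mice Jund fell by 0.79 (SE 0.205; edgeR adjusted p 0.0261) at 7 d and by 0.85 (SE 0.174; 0.00822) at 14 d. Jun measured 1135, 504, 975 and 653 CPM in uninjured mice and 827, 753, 821 and 778 at 14 d, where the high-number uninjured mice were lower than all 14 d mice, yet the fitted change was 0.04 and did not pass. Junb, with 93.4 and 188 CPM in the uninjured high-number mice and 209.9, 409.7, 481 and 338 at 14 d, was higher in 4 of 4 mice and missed the threshold (0.92 on the log2 scale, edgeR adjusted p 0.0653), and Fosb did not pass.

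Egr1 changed most. It measured 383, 16.6, 223 and 44.1 CPM in uninjured mice and 267, 322 and 35.2 at 1 d. The mice at 7 d measured 375, 239, 495 and 232, and after 14 d 184, 173, 319 and 299. The high-number mice at 7 d and 14 d were all above the uninjured and 1 d high-number mice, and low-number mice were high at every time. In high-number mice the rise was 2.48 ± 0.387 on the log2 scale at 7 d (edgeR adjusted p 0.00235) and 2.54 ± 0.362 at 14 d (0.000794).

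Atf3 measured 263, 14.5, 123 and 42.4 CPM in uninjured mice and 216, 159 and 56.0 at 1 d. After 7 d the values were 208, 112, 292 and 109, and after 14 d 125, 147, 119 and 140.1. It was again lowest in the uninjured high-number mice, and those at 7 d and 14 d sat close together above them. In high-number mice it rose by 1.47 ± 0.316 (edgeR adjusted p 0.0121) at 7 d and by 1.75 ± 0.290 (0.00218) at 14 d. Nr4a1, Ier2 and Dusp1 passed at neither time: in high-number mice Nr4a1 measured 29.1 and 32.2 CPM uninjured and 35.8 to 94.2 CPM at 7 d and 14 d, Ier2 125 and 134 against 165 to 237, and Dusp1 164 and 179.7 against 101 to 225.

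**Figure D2:**
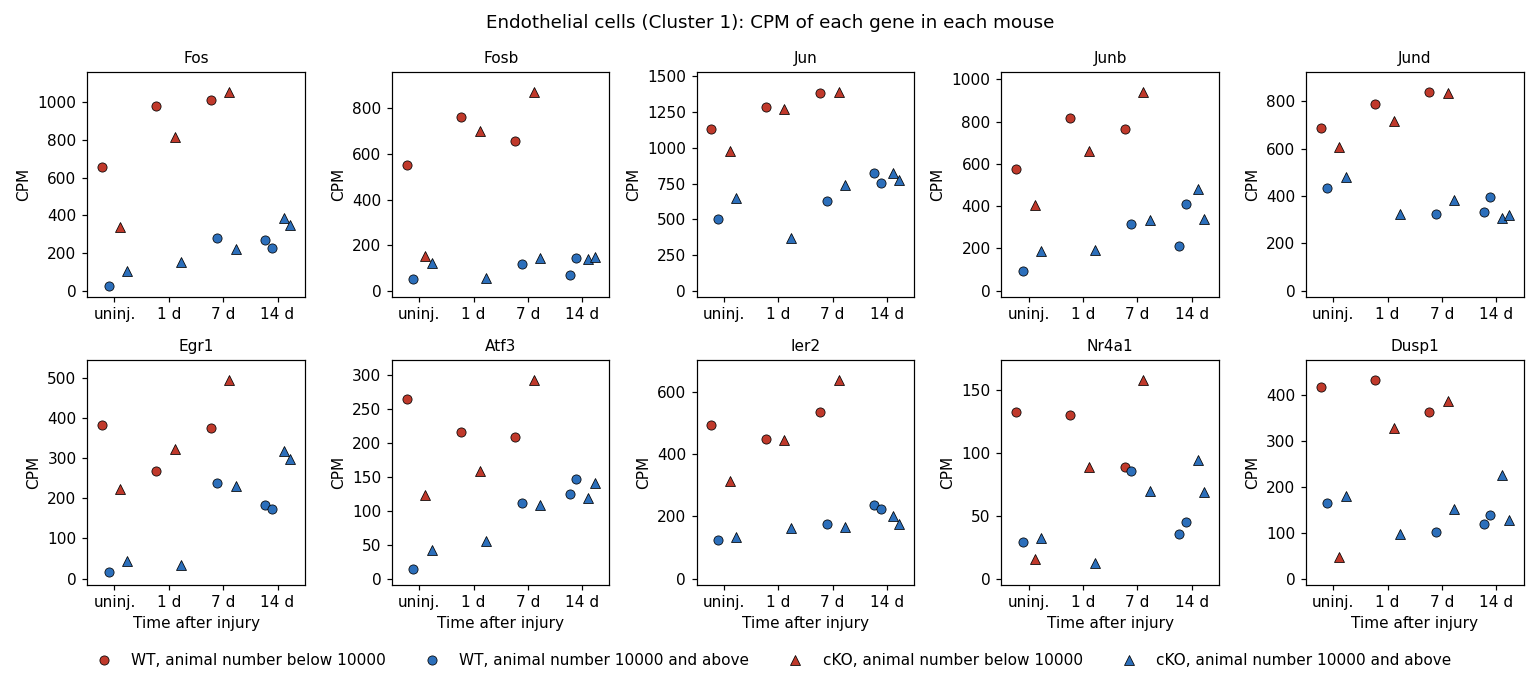
Level of each of the 10 genes (CPM) in the endothelial cells of Cluster 1, by time, with 1 point per mouse, marker by genotype and colour by animal number below 10000 or above. All low-number mice lie above all high-number mice for Fosb, Jun, Jund and Ier2, and the ranges overlap for the other 6, with Fos at 338 to 1054 against 27.0 to 385 CPM.

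In counts, 4 of the 10 genes were called in Cluster 1 in high-number mice at 7 d and 4 at 14 d, where 12.9% and 10.6% of the 11447 genes tested were called, and 0 at 1 d (0.384% of genes), where 1 cKO mouse stands against the 2 uninjured mice. The median log2 change of the 10 genes was 0.45 at 7 d and 0.43 at 14 d, beside −0.04 and −0.01 for all genes, and −0.39 at 1 d beside −0.02. With the number series as a term over all mice, Egr1 (1.86 ± 0.422, edgeR adjusted p 0.0239) and Fos (1.58 ± 0.355, 0.0223) passed at 14 d, where 2.01% of the 10985 genes passed. At 7 d 0 of the 10 and 0.71% of the genes passed. With that term Atf3 was higher by 1.24 at 14 d (edgeR adjusted p 0.071). At 7 d Egr1, Fos and Atf3 were higher by 1.43, 1.18 and 0.78 (0.0755, 0.0804 and 0.232). In low-number mice alone Egr1 and Atf3 were higher by 0.42 and 0.22 at 7 d and did not pass. With the conditions of the cell names, 0 of the 10 passed in high-number mice at 7 d and 14 d, and 0.0% and 0.0% of all genes did. Those names leave 1 uninjured mouse there and also move mice between times. Egr1, Fos and Atf3 were higher under those names too, by 3.13, 2.69 and 2.38 on the log2 scale at 7 d and by 3.33, 3.02 and 2.73 at 14 d (edgeR adjusted p 0.619, 0.618 and 0.618 at 14 d), and none passed at 7 d. Jund was lower by 0.41 at 7 d and 0.75 at 14 d (0.842 and 0.664), and by 0.26 and 0.59 with the number series as a term (0.635 and 0.276). Over all 15 mice with the cell names, the changes at 14 d were 0.11 for Egr1, −0.19 for Fos, 0.09 for Atf3 and −0.89 for Jund, and none passed.

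Depth and other RNA moved with the same contrast. In high-number mice, astrocyte markers in Cluster 1 summed to 1750 and 1378 CPM in the uninjured mice and 1486 CPM at 1 d, against 340.04 to 539 CPM at 7 d and 14 d. Median UMIs per endothelial cell were 959, 1064 and 1048.5 in the former and 2179.5 to 6841 in the latter, and endothelial markers summed to 11408 to 12620 and 15726 to 17175 CPM. In the same cells 8 heat shock genes had a median log2 change of −0.48 at 7 d and −0.39 at 14 d. The part of depth and of these RNAs in the rise of Egr1, Atf3 and Fos was not tested.

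In the neurons of high-number mice, with the conditions of the titles, Jund was lower at 7 d and 14 d. In Cluster 3 it measured 73.5, 193, 101 and 211 CPM in uninjured mice and 264 (2 UMIs), 21.4 and 162 at 1 d. The 7 d values were 0, 34.9, 56.4 and 65.4, and after 14 d 71.1, 37.3, 89.8 and 33.3. The uninjured high-number mice were highest apart from the WT mouse at 1 d, which held 18 neurons, and the 0 came from 22414 UMIs, which allows up to 134 CPM. With all mice the log2 change was −1.83 ± 0.534 at 7 d (edgeR adjusted p 0.302) and −1.46 ± 0.446 at 14 d (0.130), which did not pass. In high-number mice Jund fell by 2.18 (SE 0.404; edgeR adjusted p 0.00242) at 7 d and by 2.13 (SE 0.338; 5.93e-05) at 14 d, with 6 of 6 mice under both uninjured mice.

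With the number series as a term Jund fell by 2.37 (SE 0.390; edgeR adjusted p 1.2e-06) at 7 d and by 2.21 (SE 0.328; 1.18e-08) at 14 d, alone among the 9 genes tested, where 3.01% and 8.11% of 10238 genes passed. With the conditions of the cell names, Jund in high-number mice was lower by 1.23 and 1.76 on the log2 scale and did not pass (edgeR adjusted p 0.751 and 0.624), and 0.0% and 0.0% of genes did. Over all 15 mice with those names the change was −0.09 ± 0.486 at 7 d and −0.53 ± 0.534 at 14 d, so the fall in neurons depends on which conditions are used.

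Nr4a1, which neurons induce with activity, passed in high-number mice at 7 d (edgeR adjusted p 0.0384). Both uninjured high-number mice had 0 UMIs, which allows up to 14.8 and 14.7 CPM, and the mice at 7 d had 10 and 23 UMIs (24.9 and 26.4 CPM), so no fold is given. The call did not hold with the number series as a term (adjusted p 0.0729) or with the cell names in high-number mice (0.743), and over all mice with the cell names the direction turned (−1.72 ± 2.297 on the log2 scale, edgeR adjusted p 1). At 14 d the levels were 13.5 to 15.3 CPM and Nr4a1 missed the threshold (adjusted p 0.0540). The low-number uninjured mice, with 4.90 and 17.3 CPM, overlapped the 14 d range. In all, 2 of the 9 genes passed in Cluster 3 in high-number mice at 7 d and 1 at 14 d, where 1.45% and 7.45% of 13165 genes did.

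Atf3, the factor best known from cut axons, rested on few UMIs in neurons. It measured 4.90, 0, 0 and 0 CPM in uninjured mice and 132 (1 UMI), 0 and 5.98 at 1 d. The values were 0, 24.9, 0 and 18.3 at 7 d, and 13.5, 12.6, 10.2 and 8.50 at 14 d. The 0 UMIs of the uninjured mice allow up to 14.8, 8.66 and 14.7 CPM, so the 14 d mice are not shown to be above them. The high-number mice at 7 d, with 24.9 and 18.3 CPM, lay above these limits, while both low-number mice had 0. In high-number mice Atf3 missed the threshold at 7 d (edgeR adjusted p 0.083). With 1 UMI in the 4 uninjured mice no fold is given. With the filter on low counts of the main fit, Atf3 did not pass by the titles (edgeR adjusted p 0.759, 0.302 and 0.146 at 1, 7 and 14 d) or by the cell names (0.987, 1 and 0.474). Without that filter Atf3 passed by the titles at 7 d and 14 d (edgeR adjusted p 0.0265 and 0.0402). Neuron markers in Cluster 3 summed to 13331 to 22397 CPM in low-number and 2817 to 11393 CPM in high-number mice. The part of these markers in the neuronal values was not tested.

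In the microglia of Cluster 6, Atf3 lay higher in the injured mice. It measured 0, 18.9 and 31.6 CPM in the 3 uninjured mice and 42.0, 45.8 and 45.7 at 1 d. At 7 d the mice had 103, 75.4, 38.9 and 107, and after 14 d 94.2, 72.7, 109.99 and 116. All 11 injured mice were above all 3 uninjured mice, 1 of 9 genes tested for which this held, as for 0.920% of 7394 genes, and the low-number and high-number mice overlapped. The gap rests on few UMIs, with 0, 2 and 2 in the uninjured mice and 2, 3 and 10 at 1 d. In the main fit the log2 change was 2.43 ± 0.688 at 7 d (edgeR adjusted p 0.505) and 2.73 ± 0.660 at 14 d (0.610), which did not pass. Without a filter on low counts Atf3 passed at 14 d (2.86, edgeR adjusted p 0.0155) and not at 7 d (2.51, 0.1). With the conditions of the cell names the change was 4.76 at 7 d and 5.08 at 14 d, and did not pass (edgeR adjusted p 1 and 0.462). In Cluster 10, the other microglia, Atf3 measured 117, 476 and 679 CPM in uninjured mice and 307 to 389 CPM at 14 d, so the order seen in Cluster 6 was not seen there.

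Jun in Cluster 6 measured 129, 435 and 379 CPM in uninjured mice and 21.01, 183 and 183 at 1 d. The mice at 7 d measured 115, 272, 104 and 603, and after 14 d 615, 482, 462 and 625. The 14 d mice, all high-number, were above every uninjured mouse, and the low-number mice, uninjured or injured, were among the lowest. At 1 d the log2 change was −2.47 ± 0.867 (edgeR adjusted p 0.299), and Jund was lower by 1.29 (0.386), neither past the threshold in the main fit. Without a filter on low counts Jun passed at 1 d (−2.49) and Jund did not (−1.32). With the cell names the changes of Jun and Jund were −0.47 and −1.16. Egr1 (1.46) and Ier2 (1.48) had an unadjusted p under 0.05 at 14 d and did not pass (edgeR adjusted p 0.640 and 0.652), nor with the cell names (2.57 and 2.25; 0.931 for both).

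In oligodendrocytes and astrocytes a few AP-1 genes had an unadjusted p under 0.05 at 1 d, with few UMIs behind them, and none passed. Fos in the oligodendrocytes of Cluster 4 measured 16.2, 9.33, 62.3 and 12.7 CPM in uninjured mice and 173, 56.3 and 168 at 1 d, then 0 to 35.1 at 7 d and 26.5 to 48.2 at 14 d. It was above all other mice in 2 of 3 mice at 1 d, with 11 and 73 UMIs. The change was 2.53 ± 0.629 on the log2 scale (edgeR adjusted p 0.821), and 1.92 over all mice with the cell names (1). Without a filter on low counts the change of Fos at 1 d was 2.57 and passed. In the same cluster cKO mouse 2 at 1 d had 159 CPM of Atf3, against 0 to 26.5 CPM in the other 14 mice, and the highest level of Egr1 (85.3 CPM). Egr1 in Cluster 4 had an unadjusted p under 0.05 at 14 d (4.92 on the log2 scale, edgeR adjusted p 0.818). It passed there without a filter on low counts (4.93, edgeR adjusted p 0.0353).

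Among astrocytes, Junb in Cluster 5 was at 0 to 9.36 CPM in the uninjured mice and at 184, 71.4 and 33.3 CPM at 1 d (4.35 ± 1.103 on the log2 scale, edgeR adjusted p 0.384). With cKO mouse 2 alone at 1 d, the change was 1.33 without the libraries that share barcodes and 2.36 in high-number mice. Fos in Cluster 5 (2.64), Junb in Cluster 7 (2.60) and Egr1 in Cluster 7 (5.68) also had an unadjusted p under 0.05 at 1 d, and none passed. Egr1 in Cluster 7 had such a p at 7 d too (4.47), with 0 UMIs in the uninjured mice, and did not pass. With the cell names the changes at 1 d were 5.85 for Junb and 2.97 for Fos in Cluster 5, and 2.45 for Junb and 5.64 for Egr1 in Cluster 7, and none passed. Jund in Cluster 7 was lower at 7 d and 14 d (−1.02 and −1.06; edgeR adjusted p 0.482 and 0.395), and by 0.54 and 0.91 with the cell names.

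**Figure D3:**
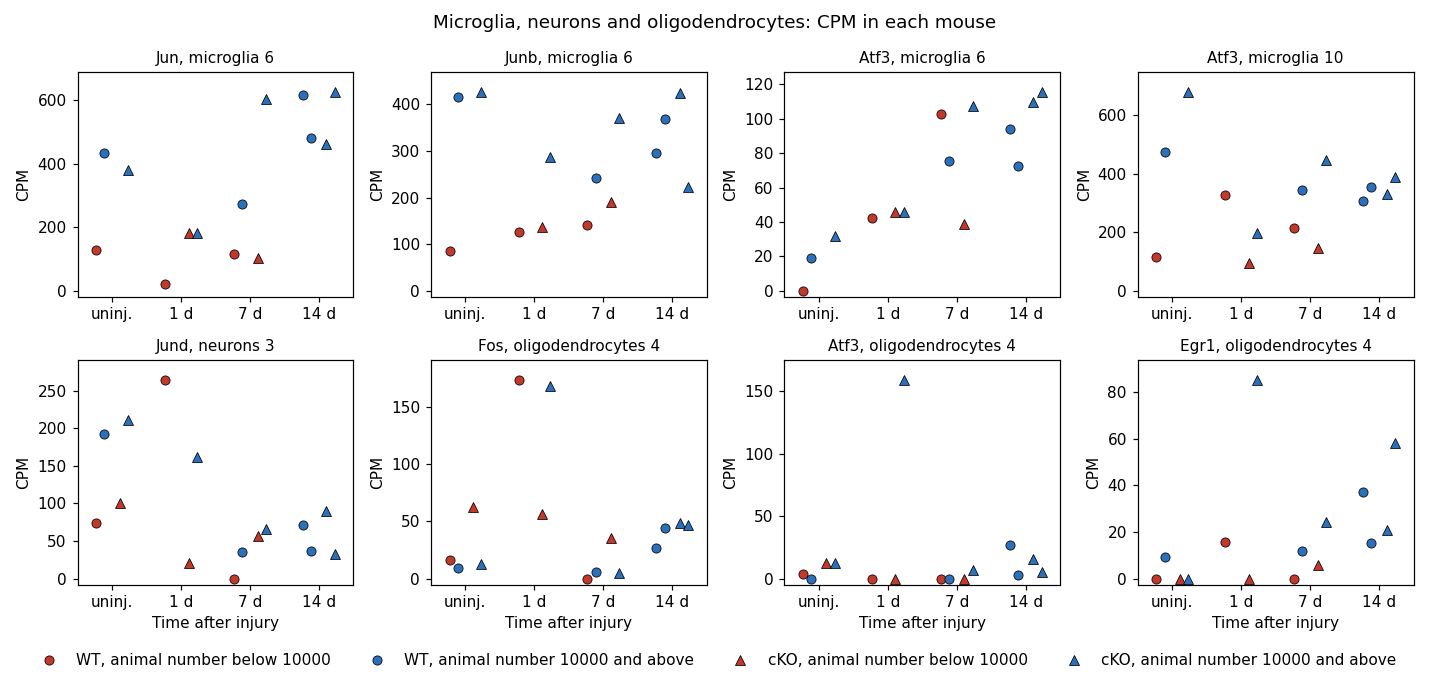
Levels (CPM) of Jun, Junb and Atf3 in the microglia of Cluster 6, Atf3 in the microglia of Cluster 10, Jund in neurons, and Fos, Atf3 and Egr1 in oligodendrocytes, by time, with 1 point per mouse, marker by genotype and colour by animal number. Atf3 in Cluster 6 lies at 0 to 31.6 CPM in uninjured mice and at 38.9 to 116 CPM after injury.

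Genotype was compared as cKO minus WT averaged over the 3 times after injury, the comparison for which the mice were made. No difference by genotype passed the test in any tested cluster. In each of the astrocyte Clusters 5 and 7, 5 of the 10 genes had enough counts to be tested, and Cluster 2 was not tested. edgeR called 0 of the 43 pairs, with 1 at an unadjusted p under 0.05 (Jun in the astrocytes of Cluster 7, −1.09 ± 0.477, adjusted p 0.861), and DESeq2 called 0, with 0 at that level, while 0.00197% of all genes were called. The level was higher in cKO in 20 of 43 pairs. With the genotypes and times of the cell names edgeR again called 0 of the 43 pairs, with 2 at an unadjusted p under 0.05. In endothelial cells after injury Fos averaged 554 ± 403 CPM in 5 WT and 496 ± 359 CPM in 6 cKO mice, and Egr1 248 ± 81.1 and 284 ± 149.7, so the genotypes of the titles overlapped widely. In microglia of Cluster 6 Atf3 averaged 77.4 ± 23.4 and 77.2 ± 37.1 CPM. Whether the change with injury differed by genotype was tested as well: edgeR called 0 of 43 pairs at each time (1, 0 and 4 at an unadjusted p under 0.05), with a smallest adjusted p of 0.780, 0.977 and 0.926. At 1 d this rests on 1 WT mouse.

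Within endothelial cells the other genes were more frequent among Fos-positive cells in most mice. In the 12 mice with enough Fos-positive cells after thinning, Jun was seen in a median of 50% of Fos-positive cells and 15.95% of the other cells, and was more frequent among Fos-positive cells in 12 of 12 mice. Junb (37.2 against 9.33%), Fosb (27.5 against 4.22%) and Atf3 (17.7 against 3.02%) were also more frequent in 12 of 12 mice. Jund and Ier2 were in 11 of 12, and Egr1, Nr4a1 and Dusp1 in 10 of 12. Cells of 1 mouse share a library, so the mice were counted and no test was made.

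Calls among other genes of the class came at rates near those of all genes at 7 d. Of 42 further immediate early genes, such as Btg2, Klf2, Nr4a2 and Ier3, 33, 15, 9, 17, 21 and 10 had enough counts in Clusters 1, 3, 4, 5, 6 and 7, and edgeR called 0 of these at every time and for genotype with all 15 mice. In the endothelial cells of high-number mice, where 31 were tested, 4 rose and 1 fell at 7 d and 5 rose and 1 fell at 14 d, beside 12.9% and 10.6% of all genes. At 1 d edgeR called 3 higher (Gadd45g, Gadd45b and Cebpd), beside 0.384% of all genes, which rests on 1 mouse with no replicate and shows no change at that time, with Gadd45g at 488 CPM in that cKO mouse against 11.9 to 88.4 CPM in the other 14. Nr4a2, a relative of Nr4a1, rose by 1.58 (0.0121) at 7 d, Gadd45g by 2.05 (0.00606) and Ier3 by 1.33 (0.00710) at 14 d, and Klf2, a factor of quiescent endothelium, fell by 1.16 (0.00786) and 1.21 (0.00150).

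Among genes that act upstream of the members, calls were few. Of 15 kinases and factors tested in Cluster 1 in high-number mice edgeR called Mapk10 lower at 7 d and Creb1 higher at 14 d and 0 at 1 d, beside 12.9% of all genes at 7 d and 10.6% at 14 d, and with all mice it called 0 in the 6 clusters. Counts of 0 to 1 of 15 show nothing particular to these genes. Of 12 other AP-1 and ATF genes it called 0 in each comparison. Of 3 axon injury genes tested it called Gap43 lower at 7 d (−2.51, adjusted p 0.00508) and at 14 d in Cluster 1. Of 8 heat shock genes that are known to respond to cell dissociation, it called 2 lower at 7 d (Hspa1a and Hspb1) and 0 at 1 d and 14 d. Their median log2 change was 0.28 at 1 d (5 of 8 higher), −0.48 at 7 d (1 of 8 higher) and −0.39 at 14 d (0 of 8 higher).

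In neurons of high-number mice Hspa8 fell beside Jund, by 1.39 (adjusted p 0.0186) at 7 d and 1.76 (5.93e-05) at 14 d, with Dnaja1 (−1.42, 0.00651), Hsp90aa1, Rhob (−1.39, 0.00724) and Ecel1 also lower at 14 d. These are 3 of 8 heat shock genes, 1 of 23 immediate early genes and 1 of 6 axon injury genes at 14 d and 1, 0 and 0 of them at 7 d, beside 7.45% and 1.45% of all genes. With all mice the 1 call among these lists was Hspb1 in the astrocytes of Cluster 7 at 1 d (4.98 ± 0.747, adjusted p 6.91e-05). With the conditions of the cell names edgeR called 0 of all genes in high-number mice in Clusters 1 and 3 at 7 d and 14 d.

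Over 175 sums of 15 mice and 17 clusters, taken relative to each cluster's mean, the genes outside the 10 whose level ran closest to the mean of the members were Btg2 (r = 0.706), Nfkbiz (0.649), Zfp36 (0.586), Ppp1r10 (0.467) and Kctd12 (0.454), out of 4312 genes. The same measure, which contains the gene itself, was 0.830 for Fos, 0.774 for Fosb and 0.406 for Jund. Sums of 1 mouse share a library and its depth, so r is a description across clusters and mice.

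By position the 10 genes lie on 8 chromosomes of GRCm38 (GENCODE M21), with Junb (ENSMUSG00000052837, 84974484 to 84978718), Ier2 (ENSMUSG00000053560, 84661331 to 84662852) and Jund (ENSMUSG00000071076, 70698949 to 70700616) on chromosome 8. Fos (ENSMUSG00000021250) is on chromosome 12 at 85473890 to 85477273, Fosb (ENSMUSG00000003545) on 7 at 19302696 to 19310051, and Jun (ENSMUSG00000052684) on 4 at 95049034 to 95052222. Egr1 (ENSMUSG00000038418) is on 18 at 34859823 to 34864984, Atf3 (ENSMUSG00000026628) on 1 at 191170296 to 191218039, Nr4a1 (ENSMUSG00000023034) on 15 at 101254269 to 101274795, and Dusp1 (ENSMUSG00000024190) on 17 at 26505590 to 26562128.

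Promoters of 8 of the 10 genes were found in RefSeq (GRCm38.p6), and Egr1 and Ier2 were not. The start meant here is that of the promoter entry, which can differ from the gene positions above. The window of Jund ends at 70697738, short of the printed gene start at 70698949. Those of Atf3, Nr4a1 and Dusp1 lie inside the printed gene spans, and that of Fosb, from 19310046, overlaps the end of its span. In the 250 bases before the start, searched on both strands, TGACG, part of the cyclic AMP response element that CREB and ATF factors bind, occurred in 6 of the 8 (Fos, Fosb, Junb, Atf3, Nr4a1 and Dusp1) and in 17.8% of 32851 promoters. The windows of Atf3 and Dusp1 overlap exons of GENCODE M21 by 7 and 47 bases, and the match in Atf3 lies 7 to 3 bases before the start, while the windows of Fosb and Nr4a1 were not checked for exons. The whole element TGACGTCA, which contains it, occurred in Dusp1 alone (1.55% of promoters). The AP-1 element TGANTCA (6.75%) and the CArG box (1.47%) occurred in 0 of the 8 windows, and TATAAA, searched on the forward strand, in Fos alone (7.59%). Bases further than 250 from the start were not searched, nor were Egr1 and Ier2. The absence of an element in these windows does not show that a gene lacks it. The promoters of the AP-1 genes Fos and Junb are shown to place the motif, with TGACG in capitals, at chr12:85473640-85473889 (plus strand) and chr8:84978749-84978998 (minus strand). No exon of GENCODE M21 overlaps the windows of Fos and Junb.
Fos: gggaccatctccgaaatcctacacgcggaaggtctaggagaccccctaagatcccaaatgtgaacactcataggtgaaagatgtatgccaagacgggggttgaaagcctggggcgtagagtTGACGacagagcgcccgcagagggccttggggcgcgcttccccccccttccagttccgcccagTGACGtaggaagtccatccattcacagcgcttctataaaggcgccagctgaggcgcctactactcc
Junb: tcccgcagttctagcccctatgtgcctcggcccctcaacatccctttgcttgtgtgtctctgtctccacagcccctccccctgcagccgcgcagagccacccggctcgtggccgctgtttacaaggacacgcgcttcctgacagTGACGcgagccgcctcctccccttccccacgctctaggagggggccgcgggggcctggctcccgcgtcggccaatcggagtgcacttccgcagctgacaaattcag
In Fos the motif lies 129 to 125 and 66 to 62 bases before the start, with TATAAA at 33 to 28, and in Junb it lies at 106 to 102. A match describes letters in a window and not a bound site.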

How the data were processed

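Cell Ranger counts against GRCm38 (mm10), the cell table and the cluster names were used as the authors deposited them, with expression in UMI counts and mitochondrial content in percent per the file headers; the authors worked in R 4.1.2 with Seurat. The 10 genes and the lists of other genes were chosen with earlier results of these data known.

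UMIs were summed per mouse and cluster (at least 10 cells) and fitted over all genes with edgeR 4.0.16 (TMM, quasi-likelihood F test) in R 4.3.3, for the 6 clusters with the most cells in which at least 12 mice had enough cells. P values were adjusted by the Benjamini-Hochberg method over all genes tested in a cluster, with a threshold of 0.05. Alternatives were DESeq2 1.42.0, no filter on low counts, a replicate block, and the number series as a term or each series alone. Others were at least 20 cells, under 10% mitochondrial UMIs, the conditions of the cell names and each mouse left out. Changes in WT mice alone were also taken, from the fit of both genotypes. Leaving out the libraries or the cells that share barcodes, and high-number mice with the conditions of the cell names, were added after the data had been seen.

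All 10 genes were named throughout. Of the other lists, up to 3 genes per comparison that passed, by smallest adjusted p, are given with values, and of genes with a like pattern the 5 with the highest correlation. In all 16 mice the batch column holds the replicate number, and mice were paired by it as the deposited batch. In Cluster 1, 13 of 21 pairs of conditions had deviations of replicates correlated above 0.1, and 10 of 10 without 14 d. Depth enters through library size. Levels were compared on log2(CPM + 50). Doublets were not treated. The fits were tested on simulated data. Tables and figures used pandas 2.3.3, numpy 2.4.6, matplotlib 3.10.9 and scipy 1.17.1 under Python 3.11.15.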

Additional observations from a re-analysis of the deposited data

Results flagged for a closer look

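In 4 of 55 groups of mice checked, 1 mouse lay far from the others; by chance about 1 in 20 groups would be marked. Fos in Cluster 6 at 14 d was highest in WT mouse 1 (282 CPM, others 113 to 127). The 10 genes summed in Cluster 6 at 14 d were highest in the same mouse (2027 CPM, others 1644 to 1675). Fosb in Cluster 1 at 14 d was lowest in that mouse (70.0 CPM, others 139.9 to 148). Nr4a1 in Cluster 1 of uninjured mice was highest in WT mouse 1 (133 CPM, others 15.4 to 32.2). No mouse was removed for these values, and their cause was not tested.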

How the results depend on the processing

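With all 15 mice, 0 of 43 pairs of gene and cluster were called at any time or for genotype, and 12 of 13, 10 of 13, 9 of 12 and 9 of 9 alternatives also gave 0. Without a filter on low counts, the calls were 2 (1 d), 1 (7 d) and 3 (14 d) of 60 pairs. At 1 d these were Fos in Cluster 4 (higher) and Jun in Cluster 6 (lower). Atf3 in Cluster 3 was called at 7 d and 14 d, and Atf3 in Cluster 6 and Egr1 in Cluster 4 at 14 d, all higher. The number series as a term gave 1 (7 d) and 3 (14 d). High-number mice alone gave 6 (7 d) and 5 (14 d) of 40 pairs, and 0 where their conditions came from the cell names.

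The replicate block, which pairs mice by replicate number, gave 0, 0, 0 and 0 and changed no call. Leaving out 1 mouse at a time gave 0 to 0 calls at 1 d and 7 d, 0 to 1 at 14 d (Jund in neurons, without either low-number uninjured mouse) and 0 to 0 for genotype. Cluster 1 was among the 3 highest clusters for 9 genes by CPM and for 10 by thinned shares. Of 91 pairs of clusters, 15 had r over 0.5, and 14 with a pseudocount of 10 CPM.

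Leaving out the libraries or cells that share barcodes, and the cell names within high-number mice, were chosen after the data had been seen. Each group holds at most 2 mice per genotype, and all 14 d mice are high-number mice, so low-number mice alone give no value at 14 d. Genotype was not compared within either series. Results in high-number mice rest on 2 uninjured mice whose cell names name other conditions. Why low-number and high-number mice differ was not tested.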
